A study of Mus musculus with 3 samples.

Results

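The genes described here carry zinc, phosphate, sulfate and nucleosides across membranes, together with the zinc-binding metallothioneins. They were chosen by name as every probe set whose single gene symbol on the platform annotation belonged to solute carrier families Slc39, Slc30, Slc20, Slc34, Slc26, Slc28 or Slc29, or was Mt1 or Mt2. That gave 78 probe sets for 46 genes, of 45101 probe sets and 18193 singly named genes on the array. Another 1 probe set names a member gene beside a second symbol and was left out. Signals came from 3 single-channel arrays of whole mouse embryos at 8.5 days post coitum. The normal array held RNA of 6 pooled C57Bl/6J litter mates that were not methylation mutants. Mutant arrays 1 and 2, which the labels call biological replicates, held 8 and 6 pooled litter mates of genotype Dnmt3l-/+. Their dams were Dnmt3l-/-, their sires were wildtype, and their background was also C57Bl/6J. The pools mixed both sexes. Dnmt3l is a cofactor of the enzymes that lay down maternal methylation imprints in the oocyte, and the comparison asks which transcripts differ in embryos that lack those marks.

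Carriers of the Slc39 (ZIP) family bring zinc into the cytosol, and those of the Slc30 (ZnT) family move it out of the cell or into vesicles. Metallothioneins bind zinc in the cytosol. When zinc is plentiful, the transcription factor Mtf1 binds short metal response elements and activates the metallothionein genes and Slc30a1. In the rodent conceptus before the placenta works, the endoderm of the visceral yolk sac is the epithelium through which zinc and other nutrients pass. Slc20 and Slc34 carriers take up phosphate with sodium, Slc26 proteins exchange sulfate, chloride, bicarbonate and other anions, and Slc28 and Slc29 proteins carry nucleosides.

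Mt1, Mt2 and the zinc importers Slc39a4, Slc39a5 and Slc39a8 rose in the mutants, with mean signals 2.73 to 5.12 times that of the normal array. No kept member was called lower. Counts of genes that rose or fell are counts called higher or lower by limma at an adjusted p under 0.05. A filter on dim probe sets kept 52 member probe sets, for 37 genes, and the other 9 genes had no kept probe set. Ratios are differences of log2(signal + 31.92) from the normal array, which understates the change of dim genes. Limma with Benjamini-Hochberg adjustment over all 27022 kept probe sets called 5 of the 52 higher (9.62%, against 0.548% of all kept probe sets) and 0 lower (against 0.0296%). Without the filter, or with a variance not fitted to signal, limma called 0 probe sets on the whole array in either direction, so every call here rests on both choices. At an unadjusted limma p under 0.05, 15 were higher (28.8%, against 6.70%) and 0 lower (against 6.86%). By size alone, 9 probe sets of 7 genes were at least 2-fold higher in both mutant arrays (17.3%, against 2.57%) and 0 were at least 2-fold lower in both (against 1.90%). Whatever the size, 28 were higher in both mutant arrays (53.8%, against 32.2%) and 10 were lower in both (19.2%, against 42.5%), while the mutants fell on either side of the normal array for the other 14. Over the 52 probe sets the median log2 ratio was 0.24, and over all kept probe sets it was -0.07. The unadjusted counts over the whole array, 1811 higher and 1853 lower, depended on the scaling, since median centring gave 2185 higher and 1457 lower. A member kept because it was bright in the mutants alone had to differ, so these shares describe the kept members only. With only 1 normal array, every p-value assumes that normal pools vary as the mutant pools do.

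**Figure D1:**
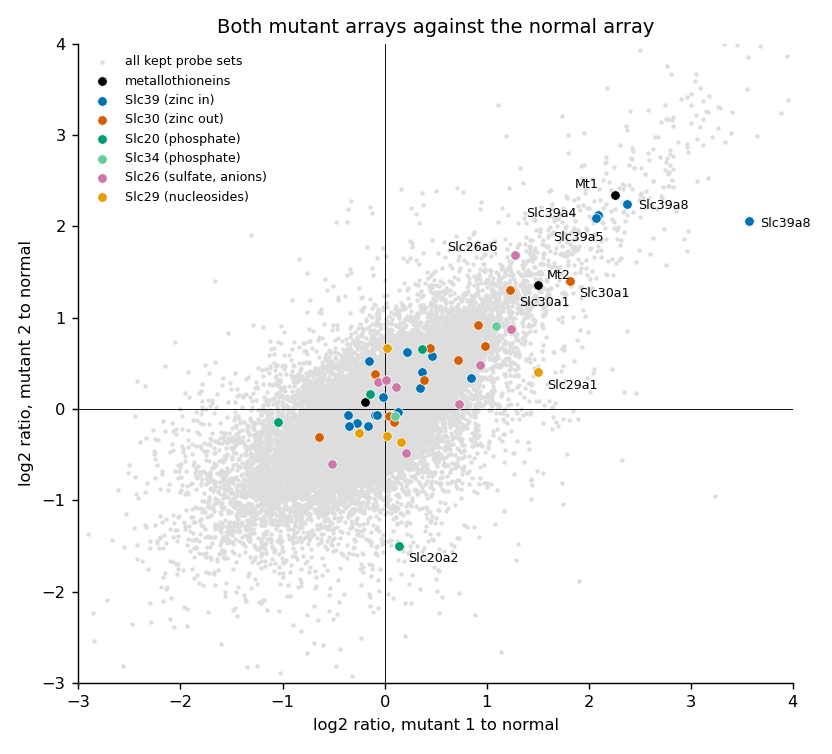
Log2 ratio to the normal array in mutant 1 (horizontal axis) and mutant 2 (vertical axis) for the 52 kept member probe sets, coloured by family, over all 27022 kept probe sets in grey (grey points beyond the axes are not drawn). The zinc genes Mt1, Mt2, Slc39a4, Slc39a5, Slc39a8 and Slc30a1, with the anion exchanger gene Slc26a6, lie at or above 1 on both axes, and no member lies at or below -1 on both.

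Both metallothionein genes rose. Mt1 had a signal of 1130 in normal embryos, 5512 in mutant 1 and 5856 in mutant 2. Both mutant signals lay far above the normal one and close to each other. The mutant mean was 5684 ± 243 (SD, n = 2), a log2 ratio of 2.30 (SE 0.18, limma adjusted p = 0.0183). This probe set has the suffix that marks sets able to match more than 1 transcript. Mt1's other probe set did not move with it, reading 95.1 on the normal array and 79.2 and 103 in the mutants (log2 ratio -0.06, 95% interval -0.98 to 0.87). Mt2 read 2149 on the normal array and 6136 and 5582 in the mutants. Its mutant mean was 5859 ± 391 (SD, n = 2), a log2 ratio of 1.43 (SE 0.18), and it passed narrowly (limma adjusted p = 0.0498). Mt2 missed the threshold without the filter (adjusted p = 0.188), without the variance trend (0.195), with a doubled pseudocount (0.0513) and with quantile normalization (0.0511), in a range of 0.0431 to 0.195 over the alternatives.

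Mtf1 itself, the zinc sensor, read 284 on the normal array and 321 and 238 in the mutants (log2 ratio -0.03, limma adjusted p = 0.978). Its mutant signals lay on either side of the normal one. The metal response element core, written as TGCACNC or TGCGCNC, was searched on both strands of RefSeq windows, and promoter sequence outside them was not searched. The windows ran from 250 bases before to 50 after each listed start (assembly GRCm38.p6), and overlapping matches were counted as 1 stretch. Of 32851 windows, 25.7% held at least 1 stretch and 1.31% held 3 or more. Windows were found for 38 of the 46 genes, 52 in all, and 21 of these (40.4%) held a stretch. Those of Mt1, Mt2 and Slc30a4 were the 3 member windows with 3 or more. The stretches of Mt1, Mt2 and Slc30a1 are shown because these genes are textbook targets of Mtf1, each in a 30-base window on the gene's strand with the matching letters in capitals. A match is only a match of letters. Some stretches began after the listed start, at positions 3 and 21 for Mt1, 5 for Mt2 and 31 for Slc30a1.
Mt1, chr8:94179054-94179083, plus strand: gcggtcccgctgTGCACACtggcgctccag
Mt1, chr8:94179079-94179108, plus strand: tccagggagctcTGCACTCcgcccgaaaag
Mt1, chr8:94179097-94179126, plus strand: ccgcccgaaaagTGCGCTCggctctgccaa
Mt2, chr8:94172383-94172412, plus strand: cagcatcgcctcTGCACCCggcccctcggg
Mt2, chr8:94172478-94172507, plus strand: tcgcagacccttTGCGCTCagctcctttgc
Mt2, chr8:94172556-94172585, plus strand: tggggggagggcGTGTGCAggctctgtccc
Mt2, chr8:94172610-94172639, plus strand: agaattcgggtcGTGCGCAggcccaggggc
Slc30a1, chr1:191906726-191906755, plus strand: aacgggggttccGAGTGCAaagcaaagttt
Slc30a1, chr1:191906799-191906828, plus strand: cgcctccgggccGAGCGCAgtcgccgcgga

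Of 14 measured Slc39 importers, 12 were kept, and 3 of these were called higher while none was called lower. Of the 12, 6 were higher and 4 lower in both mutant arrays, with a median log2 ratio of 0.24, and median centring made these counts 7 and 3. The shares over all kept probe sets were 32.2% higher and 42.5% lower in both. Slc39a8, an importer of zinc and manganese at the cell surface, read 893 on the normal array and 4776 and 4367 in the mutants. The mutant mean was 4571 ± 289 (SD, n = 2), a log2 ratio of 2.31 (SE 0.19, limma adjusted p = 0.0187). A dimmer probe set of Slc39a8 read 75.9 against 1251 and 417, so the mutants were both higher but far apart from each other, and it did not pass (log2 ratio 2.82, SE 0.62, adjusted p = 0.165). Slc39a4, the importer of the intestinal brush border whose loss causes acrodermatitis enteropathica, read 186 on the normal array and 898 and 917 in the mutants (log2 ratio 2.11, SE 0.25, limma adjusted p = 0.0461). Slc39a5, which sits on the basolateral side of gut epithelium, read 299 on the normal array and 1364 and 1382 in the mutants (log2 ratio 2.08, SE 0.23, limma adjusted p = 0.0392). For Slc39a4 and Slc39a5 the mutant arrays nearly coincided, with SDs of 13.4 and 12.9 signal units (n = 2).

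The other 9 kept importers had log2 ratios from -0.21 to 0.52, and none passed. Slc39a14, a relative of Slc39a8 that also carries iron and manganese, read 408 on the normal array and 574 and 628 in the mutants (log2 ratio 0.52, 95% interval -0.12 to 1.16), while its other kept probe set gave -0.07. Slc39a10, a surface importer, read 3843 on the normal array and 3436 and 3386 in the mutants, slightly lower in both (log2 ratio -0.17, 95% interval -0.61 to 0.27). A dimmer probe set of Slc39a10 had the opposite sign, at 0.60, and the mean of the 2 was 0.21. Slc39a6, its closest relative, read 2224 on the normal array and 1727 and 2119 in the mutants (log2 ratio -0.21, 95% interval -0.77 to 0.34). Slc39a3, another surface importer, gave -0.21 by its brighter and -0.26 by its dimmer probe set. Slc39a13, an importer of the secretory pathway, gave -0.08, with a sign that was not the same in both arrays after median centring. Slc39a7, which releases zinc from the endoplasmic reticulum, read 1987 on the normal array and 1972 and 2173 in the mutants (log2 ratio 0.06, 95% interval -0.45 to 0.56). Slc39a9 (0.43), Slc39a11 (0.29) and Slc39a1 (0.19) lay between these.

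**Figure D2:**
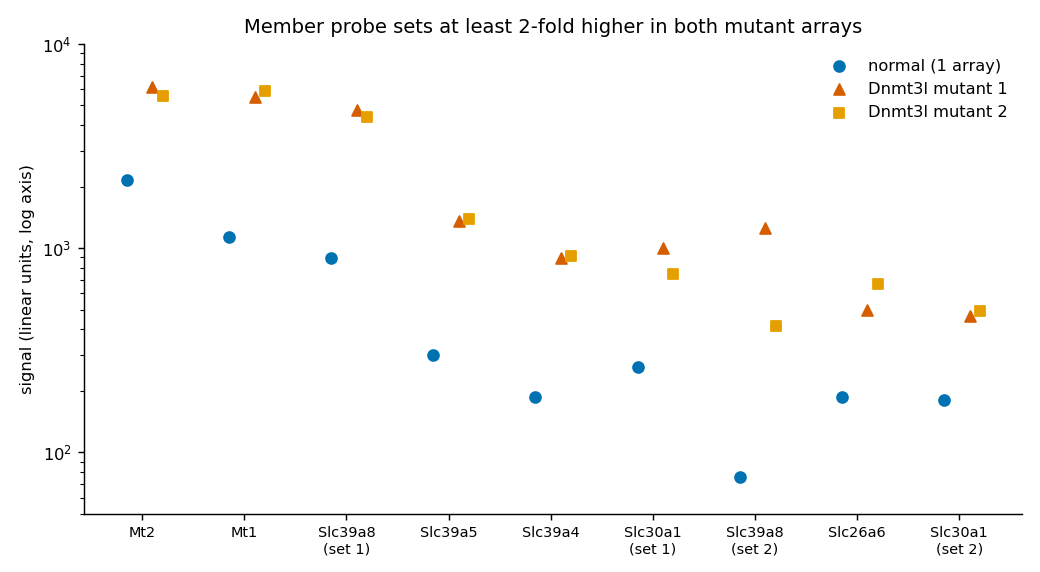
Signal on a log axis on the normal array (circles) and on mutant arrays 1 and 2 (triangles and squares) for the 9 member probe sets at least 2-fold higher in both mutant arrays, where sets 1 and 2 of a gene are its brighter and dimmer probe sets. Every mutant point lies above the normal point of its probe set, and the mutants are farthest apart for the dimmer set of Slc39a8, at 1251 and 417.

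Among the Slc30 exporters, 9 of 10 genes were kept. Of these, 6 were higher and 1 lower in both mutant arrays, with a median log2 ratio of 0.56. Over all kept probe sets, 32.2% were higher and 42.5% lower in both. None passed the adjusted threshold. Slc30a1, the exporter at the cell surface, came closest and did so by 2 probe sets. Its brighter set had signals of 262 in normal embryos, 1004 in mutant 1 and 744 in mutant 2, a mean of 874 ± 184 (SD, n = 2) and a log2 ratio of 1.61 (SE 0.29, limma adjusted p = 0.112, range 0.0813 to 0.290 over the alternatives). Its other set gave 180 in normal embryos, 464 in mutant 1 and 491 in mutant 2 (log2 ratio 1.27, SE 0.27, adjusted p = 0.160). On each set both mutant signals lay above the normal one, as they did for 32.2% of all kept probe sets. Slc30a10, which exports manganese, read 111 on the normal array and 237 and 238 in the mutants (log2 ratio 0.92, SE 0.31, limma adjusted p = 0.300). Slc30a4, a carrier of vesicles, read 482 on the normal array and 982 and 799 in the mutants (log2 ratio 0.84, adjusted p = 0.272).

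The carriers that load zinc into the early secretory pathway had smaller positive ratios that did not pass. Slc30a5 read 1348 on the normal array and 1847 and 2157 in the mutants (log2 ratio 0.56, 95% interval 0.01 to 1.10, limma adjusted p = 0.361). Its partner Slc30a6 gave 0.35, and Slc30a7 gave 0.63 by its brighter and 0.15 by its dimmer probe set. Slc30a3, the carrier of synaptic vesicles, was the exporter lower in both arrays, reading 555 on the normal array and 344 and 441 in the mutants (log2 ratio -0.48, 95% interval -1.19 to 0.24). The vesicle carrier Slc30a2 and Slc30a9, a zinc carrier of mitochondria, gave -0.02 and -0.03, with mutant signals on either side of the normal one.

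**Figure D3:**
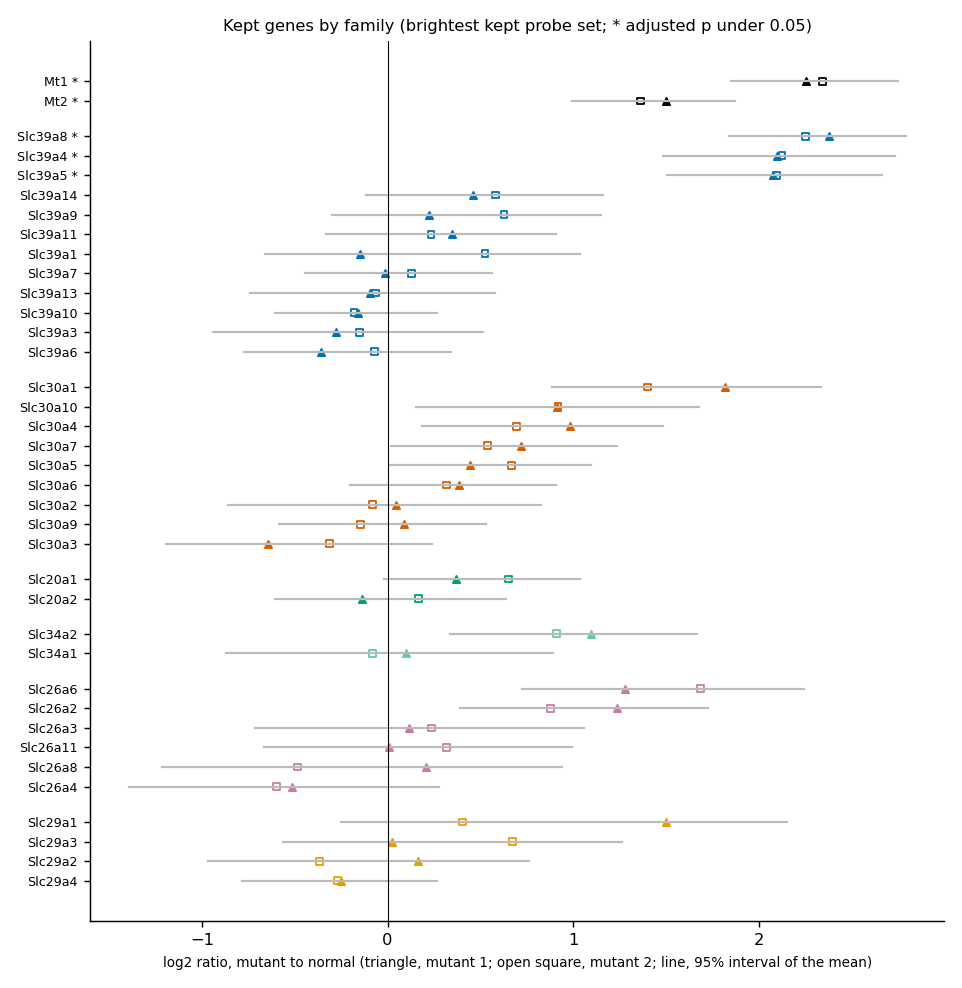
Log2 ratio to the normal array in mutant 1 (triangles) and mutant 2 (open squares) for the 37 kept genes, each by its brightest kept probe set and grouped by family, with lines for the 95% interval of the mean from limma. Asterisks mark Mt1, Mt2, Slc39a8, Slc39a4 and Slc39a5, which passed, and among the Slc29 genes the 2 points of Slc29a1 lie far apart.

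Of the 5 phosphate carriers, 4 were kept and none passed. Slc20a1, a widely expressed phosphate carrier that also serves as a retrovirus receptor, read 2216 on the normal array and 2868 and 3504 in the mutants (log2 ratio 0.51, 95% interval -0.02 to 1.04). A dimmer Slc20a1 probe set had the opposite sign, reading 275 against 117 and 247 (log2 ratio -0.59), and the mean over the gene's 3 probe sets was -0.07. Slc20a2 gave 0.01, and its dimmer probe set read 578 against 639 and 184, so that mutant 2 alone was low. Slc34a2, the phosphate carrier of lung and intestinal epithelium, read 279 on the normal array and 634 and 553 in the mutants. Its mean of 593 ± 56.9 (SD, n = 2) gave a log2 ratio of 1.00 (SE 0.27, limma adjusted p = 0.220). Slc34a1, a carrier of the renal proximal tubule, gave 0.01 at signals of 95.3 to 112. Slc34a3, also known from kidney, was removed by the filter because the normal array was dim, and it was singled out after its values were seen. It read 26.4 on the normal array, below that array's 20th percentile of 31.9, and 199 and 165 in the mutants. Its log2 ratio was 1.87 (SE 0.39, limma adjusted p = 0.333 in the fit without the filter), and it ran from 1.44 to 2.73 over the pseudocounts tried.

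In the Slc26 family, 6 of 10 genes were kept, and none passed. Slc26a6, an exchanger of chloride, oxalate and bicarbonate at apical membranes, read 186 on the normal array and 497 and 669 in the mutants. The mean of 583 ± 122 (SD, n = 2) was a log2 ratio of 1.48 (SE 0.30, limma adjusted p = 0.142, range 0.0875 to 0.320 over the alternatives). Slc26a2, a sulfate carrier that cartilage needs for proteoglycan sulfation, read 482 on the normal array and 1180 and 913 in the mutants (log2 ratio 1.06, SE 0.27, limma adjusted p = 0.205). Its other probe sets gave 0.39 and 0.71, and all 3 were higher in both mutant arrays. Slc26a4, pendrin, was the one lower in both, reading 171 on the normal array and 110 and 102 in the mutants (log2 ratio -0.56, 95% interval -1.39 to 0.28). Slc26a3 (0.17), Slc26a11 (0.16) and Slc26a8 (-0.14) were dim, with kept signals from 70.2 to 202, and their intervals spanned 0. The probe sets of Slc26a3 below the filter had the opposite sign, at -1.01, -0.13 and -0.48. The first of them read 96.8 on the normal array and 25.3 and 39.1 in the mutants.

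The nucleoside carriers gave no call. Slc29a1, the main equilibrative carrier at the cell surface, read 268 on the normal array and 816 and 364 in the mutants. The mutant arrays were both higher but differed from each other more than 2-fold, so the log2 ratio of 0.95 had an SE of 0.48 (95% interval -0.25 to 2.15, limma adjusted p = 0.469). Slc29a2 (-0.10) and the lysosomal carrier Slc29a3 (0.35) had intervals that spanned 0. Slc29a4, which carries monoamines besides adenosine, read 1552 on the normal array and 1301 and 1284 in the mutants, lower in both by less than the fit could call (log2 ratio -0.26, 95% interval -0.78 to 0.27). Of the concentrative Slc28 carriers only Slc28a3 was measured by singly named probe sets. All 3 of its probe sets were below the filter, at signals of 21.0 to 101, and their log2 ratios of 0.43, -0.52 and 0.38 did not share a sign.

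The 26 member probe sets below the filter ranged from 0.615 to 199 in signal over the 3 arrays. Genes with no kept probe set were Slc26a1, Slc26a5, Slc26a7, Slc26a10, Slc28a3, Slc30a8, Slc34a3, Slc39a2 and Slc39a12. Of these, the anion exchanger Slc26a7 read 22.5 on the normal array and 91.3 and 58.6 in the mutants on its brighter set, and it was chosen after its values were seen. Slc30a8, the carrier of insulin granules, read 31.0 against 47.8 and 53.2, and the prestin gene Slc26a5 read 76.0 against 108 and 12.5. The fit without the filter, which tested all 78 member probe sets, called none of them.

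Other genes of the same pathways were read from the same fit, each by its brightest kept probe set. For comparison, 32.2% of all kept probe sets were higher and 42.5% lower in both mutant arrays, and 0.548% were called higher. Of 11 kept genes of zinc handling and zinc enzymes, 8 were higher and 2 lower in both mutant arrays, none was called lower and 1 rose (median log2 ratio 0.44). The one that rose was Car2, a zinc enzyme that hydrates carbon dioxide and is abundant in red cells (log2 ratio 1.76, SE 0.18, limma adjusted p = 0.0346). Of 11 kept genes of phosphate handling, 7 were higher and 3 lower in both, none was called lower and 1 rose (median 0.27). It was Pdzk1, a scaffold that holds carriers at the brush border, which read 312 on the normal array and 2095 and 2445 in the mutants (log2 ratio 2.74, SE 0.23, limma adjusted p = 0.0196). Of 15 kept genes of sulfate uptake and use, 7 were higher and 4 lower in both, none was called lower and 1 rose (median 0.13). It was the sodium-coupled sulfate carrier Slc13a4, which read 397 on the normal array and 3829 and 4051 in the mutants, a mean 9.93 times higher (log2 ratio 3.21, SE 0.20, limma adjusted p = 0.0111). Of 18 kept genes of nucleoside metabolism, none passed in either direction, 7 were higher in both arrays and 8 lower (median -0.06).

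**Figure D4:**
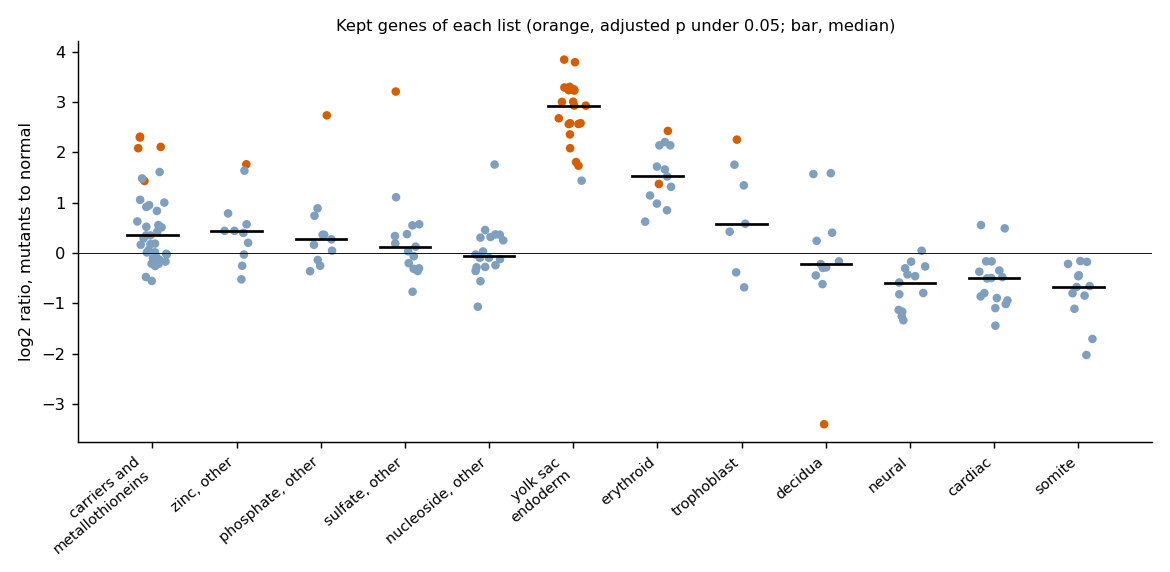
Mean log2 ratio of the 2 mutant arrays to the normal array for the kept member genes, the other genes of their pathways and the tissue marker lists, with a point per gene, bars at the medians and orange for genes that passed the adjusted threshold. The yolk sac endoderm markers stand highest, with a median of 2.93, and the neural, cardiac and somite markers have medians from -0.67 to -0.50.

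Tissue markers moved in the same arrays. The marker lists were chosen with earlier results of these data known, so their counts describe the listed genes only. Over all kept probe sets, 32.2% were higher and 42.5% lower in both mutants, while 0.548% were called higher and 0.0296% called lower. All 22 kept markers of yolk sac endoderm were higher in both mutants and 20 of them passed. Their summed signal was 25580 on the normal array and 142987 and 154711 in the mutants. All 13 kept erythroid markers were also higher in both, 2 passed, and their summed signal was 35175 against 72037 and 72101. Of 7 kept trophoblast markers 5 were higher in both, 3 of them at least 2-fold, 2 were lower in both, and 1 rose. Of 11 kept decidual markers 4 were higher in both, 1 of them at least 2-fold, 6 were lower in both, and 1 fell. The one that fell was Prl8a2, which read 1376 on the normal array and 91.2 and 111 in the mutants (log2 ratio -3.41, SE 0.30, limma adjusted p = 0.0212). Cebpb went the other way, reading 231 on the normal array and 762 and 753 in the mutants (log2 ratio 1.59, SE 0.25, limma adjusted p = 0.0885). Kept markers of the embryo proper had lower summed signals on both mutant arrays, but limma called none of them in either direction. Their summed signals on the normal array and mutants 1 and 2 were 11003, 5715 and 7759 for 13 neural genes, 38964, 22386 and 30564 for 16 cardiac genes, and 7488, 4001 and 5160 for 12 somite genes. Lower in both mutants were 12 of the neural, 12 of the cardiac and 9 of the somite genes. Of the cardiac genes, 2 were higher in both. No marker was listed at 0, but the filter had kept only the brighter markers, so this does not show which were expressed. The part of these shifts in the zinc carrier and metallothionein values was not tested. In pooled whole embryos, more cells of a type and more RNA per cell cannot be told apart.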

How the data were processed

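The deposited values are 1 array intensity per probe set and array, made by the authors with GCOS and MAS5, per the submitters' processing notes, which give no versions. From the values, every array has a 2% trimmed mean of 500, so the arrays had been scaled to it. Under such scaling a rise of some genes can lower the scaled signals of others, and its size here was not tested. Median signals were 144, 130 and 140 on the normal array and mutants 1 and 2.

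The 64 control probe sets were left out. The pseudocount, 31.92, is the median of the arrays' 20th percentiles. Probe sets at or above the 40th percentile of the mean of the 2 groups' log2 means were kept. Limma 3.58.1 (R 4.3.3) was fitted across all kept probe sets with the prior variance following signal (two-sided), and the threshold was 0.05 on Benjamini-Hochberg adjusted p. There was 1 residual degree of freedom, with 4.52 prior degrees added. The number of arrays limits the precision. For mutant against normal, 20 simulated data sets of 27022 probe sets were tested, and 83% of 4-fold and 18.9% of 2-fold changes were called.

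A gene is given by its brightest kept probe set. Named were all members that passed, the 10 highest and up to 10 lowest genes by the less changed mutant array, Mt1, Mt2, the brightest gene of each family and a short list. Other genes are named to account for their family. The members and lists were chosen with earlier results of these data known. RefSeq promoter windows come from assembly GRCm38.p6, and the deposited values name no build.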

Additional observations from a re-analysis of the deposited data

How the results depend on the processing

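The alternatives were pseudocounts of 15.96, 63.84 and 1, no filter, a stricter filter at the 60th percentile, median centring, quantile normalization, cyclic loess, no trend of variance, each mutant array alone, and the mean over a gene's probe sets. The 5 limma calls among the members fell to 0 without the filter and to 0 without the variance trend, where 16 and 13 members were higher and 1 and 0 lower at an unadjusted limma p under 0.05. Over the whole array these settings also called 0 probe sets, with 2423 higher and 2451 lower, and 1641 higher and 1814 lower, at that unadjusted p. They were 4 with the pseudocount of 63.84 and with quantile normalization, which both lost Mt2, and 5 under the other alternatives with a test. The median log2 ratio was 0.39 with the stricter filter, 0.17 without a filter and 0.22 to 0.32 with 1 mutant array left out. With 1 mutant array left out, 9 to 12 members were at least 2-fold higher than the normal array, and 1 was at least 2-fold lower, a dimmer probe set of Slc20a2 in mutant 2 or of Slc20a1 in mutant 1. No named gene that passed changed sign. With the mean over a gene's probe sets, the log2 ratio of Mt1 fell from 2.30 to 1.12 and that of Slc39a8 went from 2.31 to 2.56. Slc20a1 (0.51 to -0.07) and Slc39a10 (-0.17 to 0.21), which had not passed, changed sign under that mean. No paired analysis was possible because the normal group has 1 array and its label carries no replicate number.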
